A study of Mus musculus with 20 samples.

Results

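The mitochondrial respiratory chain was examined in mouse kidney through 98 probe sets for 71 genes, out of 12422 probe sets on the array. Members were the probe sets that the platform annotation maps to 1 gene whose symbol starts with Nduf, Uqcr, Cox4 to Cox8 or Atp5, or is Sdha, Sdhb, Sdhc or Sdhd, a rule on symbols alone. They fall into complex 1 (42 probe sets, 31 genes), complex 2 (4 and 4), complex 3 (7 and 7), complex 4 (23 and 15) and complex 5 (22 and 14). Complex 1 here includes Ndufaf1 and Ndufaf4, which are assembly factors and not subunits. A further 10 probe sets that name several genes, 1 or more of them of the chain, were left out. Total RNA from kidneys of C57BL/6J mice was hybridised to 20 arrays, each a pool from 3 mice, to compare a low phosphate diet with a control diet in normal and in Hyp mice. Hyp mice are a model of X-linked hypophosphatemia with a mutation of Phex, an endopeptidase of bone, and they lose phosphate through the kidney. Each genotype was studied on both diets, which gives 4 groups of 5 arrays: normal mice on the control and on the low phosphate diet, and Hyp mice likewise. There were 12 arrays of males and 8 of females, and the diets lasted 5 days for 12 arrays and 3 days for the remaining 8. The labels used here give neither the age of the mice nor the phosphate content of the diets.

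The respiratory chain sits in the inner mitochondrial membrane. Complex 1 takes electrons from NADH and complex 2 takes them from succinate, and both pass them to ubiquinone. Complex 3 hands them on to cytochrome c, complex 4 to oxygen, and complex 5, the ATP synthase, uses the resulting proton gradient to join ADP and inorganic phosphate. Complex 2 pumps no protons and is also an enzyme of the citric acid cycle. The proximal tubule, which reabsorbs most filtered phosphate, depends on this oxidative supply of ATP. The members described here are encoded in the nucleus, since the mitochondrial genome's own subunits carry other symbols.

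Values are signal intensities on a linear scale that were deposited already scaled, each array to about the same trimmed mean. Differences are on the scale of log2(intensity + 37.8) and come from a limma fit with terms for the 4 groups and the 4 combinations of sex and days. They are given with the standard error (SE) of the fit, and "called" means an adjusted p under 0.05 (Benjamini-Hochberg over the 8695 probe sets bright enough to be tested). Of the 98 members 81 were tested, for 67 genes, and Cox5a, Cox6a2, Cox8a and Ndufa12 had no tested probe set. Intensities of different probe sets cannot be compared with each other, and in bulk kidney fewer cells of a type and less RNA per cell cannot be told apart.

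Defining markers of the proximal tubule were bright on each of the 20 arrays, with Slc34a1, the sodium phosphate cotransporter, at 8770 to 17166 and Lrp2, or megalin, at 6882 to 10490. The arrays form 6 sets by their title numbers. Arrays 01 to 04, 05 to 08, 11 to 14 and 15 to 18 each hold 1 array of each group, arrays 09 and 10 hold Hyp mice only and arrays 19 and 20 hold normal mice only. Arrays 05 to 08, from females fed for 5 days, stood apart, with median Spearman correlations to the other arrays of 0.895 to 0.934. In arrays 09 and 10 these were 0.943 to 0.947, and in the other sets 0.958 to 0.969. The ratio of actin intensity at the 3′ end to that at the 5′ end, a sign of RNA degradation, was 1.22 to 1.27 in arrays 01 to 04, 1.74 to 2.61 in arrays 05 to 08 and 1.39 to 1.98 in the other sets. The same ratio for Gapdh was 1.07 to 1.52 in arrays 05 to 08, 1.15 to 1.19 in arrays 09 and 10 and 0.874 to 1.1 in the other sets. The part of RNA quality in the results below was not tested.

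Respiratory chain transcripts differed between array sets, most clearly in complexes 1 and 3. For each probe set the deviation of each array from its mean log2 value over the 20 arrays was taken, and the median over the members was followed by array. This median was -0.24 to -0.050 in arrays 05 to 08 and -0.17 to -0.12 in arrays 09 and 10. It was 0.035 to 0.078 in arrays 01 to 04, -0.013 to 0.17 in arrays 11 to 14, 0.046 to 0.13 in arrays 15 to 18 and 0.15 to 0.21 in arrays 19 and 20. Arrays 05 to 10 were thus the 6 lowest, below the 14 others. Over the 8695 tested probe sets the same median stayed between -0.051 and 0.057.

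Complex 1, the NADH dehydrogenase, had medians of -0.36 to -0.13 in arrays 05 to 08 and of 0.23 to 0.26 in arrays 19 and 20. Complex 3, the cytochrome c reductase, spread more, from -0.56 to -0.060 in arrays 05 to 08 and from 0.27 to 0.28 in arrays 19 and 20. Complex 4, cytochrome c oxidase, had -0.12 to 0.082 in arrays 05 to 08 and -0.19 to -0.050 in arrays 09 and 10. Complex 5 had -0.13 to 0.035 and -0.15 to -0.088 in the same sets. In arrays 06 and 07 complex 4 thus lay at 0.0085 and 0.082, where complexes 1 and 3 were low. Complex 2, succinate dehydrogenase, ran the other way in the sets with 1 genotype, at 0.12 to 0.19 in arrays 09 and 10 and -0.17 to -0.076 in arrays 19 and 20. Its 4 probe sets are few, so 1 gene weighs heavily in these medians.

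**Figure D1:**
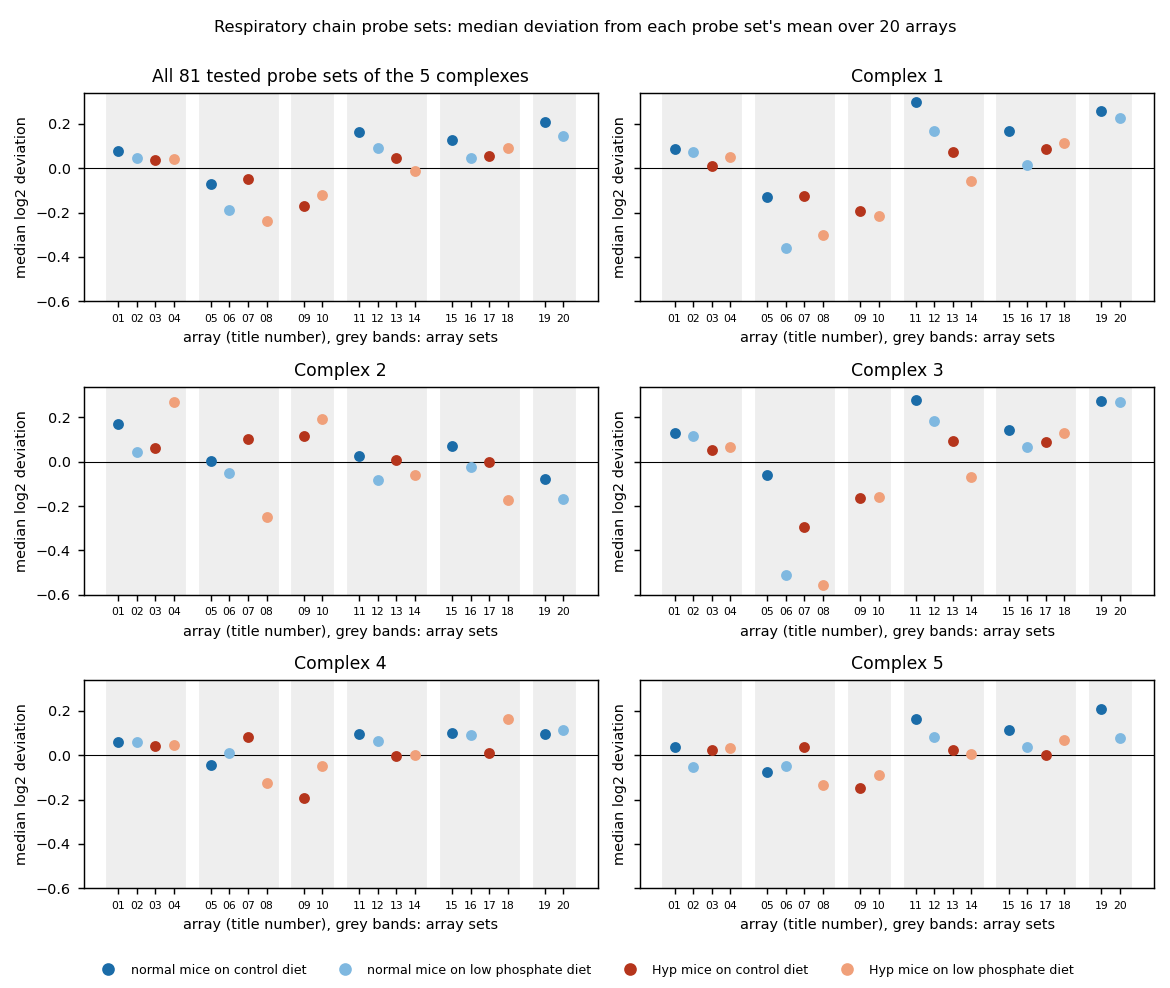
Median log2 deviation of the respiratory chain probe sets from their means over 20 arrays (y axis, no unit), by array in title order (x axis) with array sets as grey bands and the 4 groups in colour, over the 81 tested members and for each complex. Arrays 05 to 10 are the lowest 6 over the 81 members, and in complex 2 arrays 09 and 10 lie above 0 while arrays 19 and 20 lie below it.

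Males fed for 5 days were measured in separate sets, which shows the size of this spread between arrays with the same labels. In Hyp males, arrays 09 and 10 were set against arrays 03 and 04, with 1 array of each diet on both sides. The member median of the mean difference was -0.17, with 22 probe sets higher and 59 lower, against a median of 0.0032 over the 8695. By complex it was -0.23 in complex 1, 0.037 in complex 2, -0.21 in complex 3, -0.029 in complex 4 and -0.23 in complex 5. A difference below -0.5 was found in 15 of 81 members and in 9.12% of the probe sets tested, and 1 above 0.5 in 2 members and in 6.50%. In normal males, arrays 19 and 20 against arrays 01 and 02 gave a member median of 0.16, with 54 higher and 27 lower, against -0.041 over the 8695. Complexes 1, 3, 4 and 5 had medians of 0.13, 0.18, 0.17 and 0.18, and complex 2 had -0.25, with each of its 4 probe sets lower. A difference above 0.5 was found in 4 members, against 7.36% of the probe sets tested, and 1 below -0.5 in 5 members, against 11.6%. The labels give the same genotype, diets, sex and days on both sides of each of these contrasts.

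Single members show how unevenly the sets differed. Ndufab1, the mitochondrial acyl carrier protein that is also a subunit of complex 1, lay at 1900 to 3308 in arrays 05 to 08 and at 2398 to 2573 in arrays 09 and 10. In the other 14 arrays it lay at 4586 to 6162, with no overlap. Atp5e, the epsilon subunit of the ATP synthase, lay at 978 to 1170 in arrays 05 to 08, 1056 to 1145 in arrays 09 and 10, 1833 to 2650 in arrays 01 to 04 and 2836 to 4219 in the rest. Uqcr11, a small subunit of complex 3, lay at 1439 to 2878 in arrays 05 to 08 and at 2130 to 2656 in arrays 09 and 10, against 3602 to 5886 elsewhere.

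Other members went up in the same arrays. Cox6b1, an accessory subunit of complex 4 that faces the space between the membranes, lay at 463 to 627 in arrays 05 to 08 and 332 to 396 in arrays 09 and 10, against 191 to 300 elsewhere. Uqcrc2, a core protein of complex 3, lay at 6700 to 12862 in arrays 05 to 08 and at 6488 to 7869 in arrays 09 and 10. Its other 14 arrays ran from 3510 to 6706 and overlapped those sets at array 12. The only probe set of Cox6b1 carries the suffix _r, which marks probes chosen under relaxed rules. The only one of Uqcrc2 carries the suffix _f, which marks probes shared within a family. Sdha, the flavoprotein that oxidises succinate, moved little, from 1102 to 1537 over the 20 arrays. Collecting duct markers, 4 of 10 listed genes on the array and none of them at 0, summed to 2414 to 3505 in arrays 05 to 08, 3440 to 3747 in arrays 09 and 10 and 4386 to 6432 elsewhere, and their part in these levels was not tested.

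**Figure D2:**
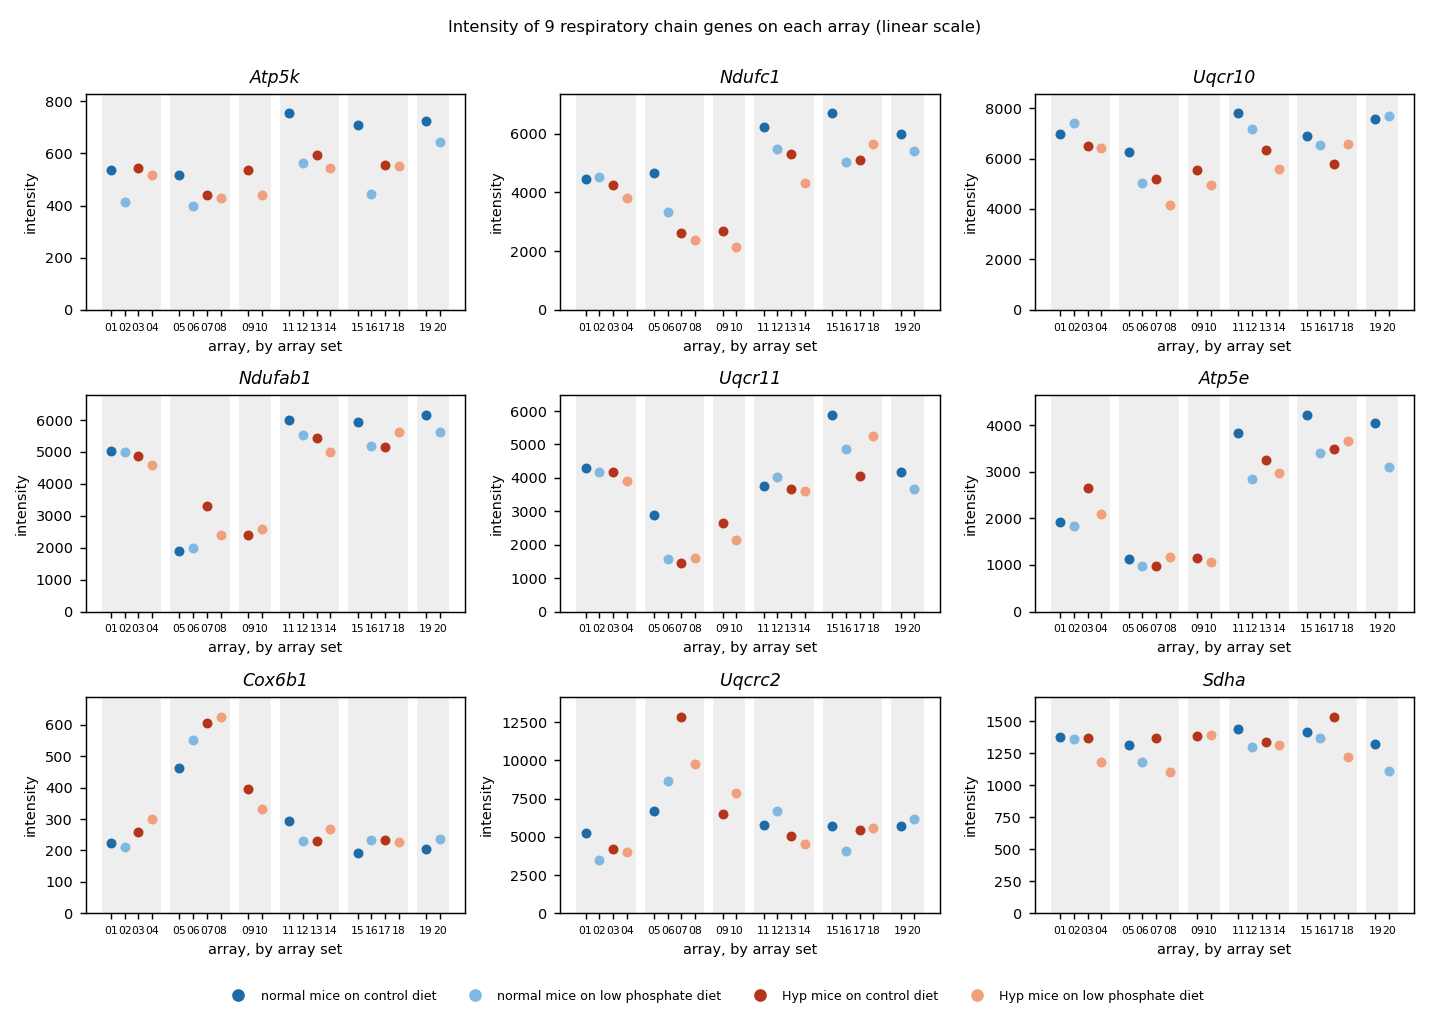
Intensity (y axis, linear, from 0) of Atp5k, Ndufc1, Uqcr10, Ndufab1, Uqcr11, Atp5e, Cox6b1, Uqcrc2 and Sdha on each of the 20 arrays (x axis, in title order, array sets as grey bands), coloured by group. Ndufab1, Uqcr11 and Atp5e are low in arrays 05 to 10, Cox6b1 is high there, and Sdha stays between 1102 and 1537.

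The diet comparison in normal mice asked whether 3 or 5 days of low phosphate changed the chain in animals with intact phosphate handling. No member was called in limma (0 of 81, against 0.184% of the 8695 probe sets tested), and 1 member had an unadjusted p under 0.05, against 8.56% of those tested. Members were slightly lower on low phosphate, with a median of -0.075, 58 lower and 23 higher, beside a median of 0.012 over the 8695 (4547 higher and 4148 lower). Of the tested markers of other cells, 13 of 16 for proximal tubule were higher (median 0.13), and 6 of 8 for podocytes and endothelium (-0.14), 7 of 8 for muscle (-0.13), 6 of 8 for adipocytes (-0.12) and 3 of 4 for collecting duct (-0.23) were lower, with 0 called, and their part was not tested. The complex medians were -0.10 for complex 1, -0.044 for complex 2, -0.077 for complex 3, -0.014 for complex 4 and -0.075 for complex 5. The 4 members of complex 2 and the 7 of complex 3 were each lower, and complex 4 divided into 8 higher and 8 lower. The member median was below 0 in 5 of 5 array sets that hold both diets, from -0.097 to -0.012. The 95% interval of a member reached 0.27 to each side at the median, and for 56 of 81 members the interval lay within 0.5 of 0 in both directions, a fold change of 1.41.

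Atp5k, subunit e of the ATP synthase, which helps the enzyme pair into dimers, had the smallest p among members. On control diet normal mice had intensities of 536, 517, 754, 708 and 726 in arrays 01, 05, 11, 15 and 19. On low phosphate diet they had 414, 397, 564, 444 and 645 in arrays 02, 06, 12, 16 and 20. The groups overlapped, and the low phosphate array was the lower one in each of the 5 sets, by 0.16 to 0.63. The mean went from 648 ± 112 to 493 ± 107 (SD, n = 5 each), a log2 difference of -0.38 ± 0.12 SE (adjusted p = 0.293). With a block for array set in place of sex and days the difference had an SE of 0.087 and an adjusted p of 0.0713.

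The other members named by their p in normal mice were smaller. Uqcrq, the ubiquinone-binding subunit of complex 3, was lower by 0.19 on the log2 scale (SE 0.10, adjusted p = 0.644), with means of 11058 ± 1207 and 9804 ± 1836 (SD, n = 5 each). Cox7a2l, an assembly factor that joins complexes 3 and 4 into supercomplexes, had 1500 ± 190 and 1717 ± 151 (SD, n = 5 each), and was higher on low phosphate in 5 of 5 sets (0.20 ± 0.10 SE, adjusted p = 0.635). Atp5g2, a precursor of the rotor subunit c, had a difference of 0.22 ± 0.18 SE in its dimmer probe set and of -0.070 ± 0.10 SE in its brighter one, so the sign depended on the probe set.

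Promoter sequences were read for 58 of the 71 genes from RefSeq (GRCm38.p6), as the 250 bases before the start, on the gene's strand; 13 genes had no entry. The letters GCATGCGC, the core of the site of the nuclear respiratory factor NRF-1, were found in 8 of 58 (13.8%: Atp5g2, Atp5k, Atp5l, Cox6a1, Ndufa6, Ndufa8, Ndufaf4, Sdhb) and in 2.32% of 27025 promoters of the same length. CCGGAAGT, a core site of ETS factors such as GABP, was found in 2 of 58 (3.45%: Uqcr11, Uqcrh) and in 2.93%. AAGATGGC, the core of a YY1 site, was found in 0 of 58 and in 1.59%. Both strands were searched, and the motifs were chosen as known sites of mitochondrial genes. In Atp5k the NRF-1 letters stand on both strands and overlap. The promoters of Atp5k (chr5:108434400-108434649, minus strand), the member with the smallest p for diet, and of Uqcr11 (chr10:80406822-80407071, minus strand), one of the members that differed most between array sets, are shown with these letters in capitals.
Atp5k: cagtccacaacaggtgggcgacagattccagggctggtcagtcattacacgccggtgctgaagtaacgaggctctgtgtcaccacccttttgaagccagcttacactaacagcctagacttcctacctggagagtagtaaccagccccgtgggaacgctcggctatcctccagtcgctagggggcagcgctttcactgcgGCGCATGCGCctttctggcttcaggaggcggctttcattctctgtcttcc
Uqcr11: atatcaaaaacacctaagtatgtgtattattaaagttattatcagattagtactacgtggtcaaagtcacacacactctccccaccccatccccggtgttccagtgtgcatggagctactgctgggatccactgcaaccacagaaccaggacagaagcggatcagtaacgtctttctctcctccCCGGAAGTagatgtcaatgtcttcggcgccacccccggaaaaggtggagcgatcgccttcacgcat
These matches are a description of the window, and no binding was measured.

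In Hyp mice the diet gave smaller values. No member was called in limma (0 of 81, against 0.150% of those tested), and 1 had an unadjusted p under 0.05, against 4.59%. The member median was -0.034, with 51 lower and 30 higher, beside 0.0046 over the 8695, and it was below 0 in 3 of 5 array sets, from -0.12 to 0.022. It was -0.0033 without array 07, -0.057 without array 18 and -0.011 without arrays 05 to 08. Complex medians ran from -0.061 in complex 3 to 0.020 in complex 4. The 95% interval lay within 0.5 of 0 for 63 of 81 members.

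Sdha had intensities of 1373, 1372, 1388, 1338 and 1537 in Hyp mice on control diet and of 1185, 1102, 1393, 1318 and 1221 on low phosphate, in the same order of sets. The groups overlapped through array 10, and the difference was -0.17 ± 0.087 SE (adjusted p = 0.998). In normal mice it was -0.12 ± 0.087 SE. Averaged over genotypes Sdha was lower by 0.15 (SE 0.062, adjusted p = 0.439) and Atp5k by 0.24 (SE 0.082, adjusted p = 0.296), and no member was called there (0 of 81, against 0.472%), while 3 had an unadjusted p under 0.05, against 9.75%. The other members named by their p in Hyp mice depended on the probe set.
For Ndufa3, an accessory subunit of complex 1, the dimmer probe set gave 0.33 ± 0.15 SE and the brighter one -0.10 ± 0.11 SE. For Cox4i1, the common isoform of the largest nuclear subunit of complex 4, the values were 0.33 ± 0.17 SE and -0.059 ± 0.14 SE. For Cox6c they were -0.43 ± 0.27 SE in a probe set of 28.9 to 186 and -0.029 ± 0.12 SE in a probe set of 11076 to 16942.

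The interaction asks whether the diet acted differently in the 2 genotypes. No member was called in limma (0 of 81, against 0.0460%), 1 had an unadjusted p under 0.05, against 3.23%, and the member median was 0.038, with 49 higher and 32 lower. It was 0.0017 without array 09 and 0.083 without array 20. The members with the smallest p had 0.52 ± 0.21 SE in the dimmer probe set of Ndufa3 and 0.38 ± 0.21 SE in Atp5pb, the b subunit of the ATP synthase stalk, both with an adjusted p of 1. For Atp5k the interaction was 0.28 ± 0.16 SE, with the same adjusted p. The interval reached 0.38 to each side at the median. This is the precision for a typical member and not a limit of what could be called after adjustment.

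**Figure D3:**
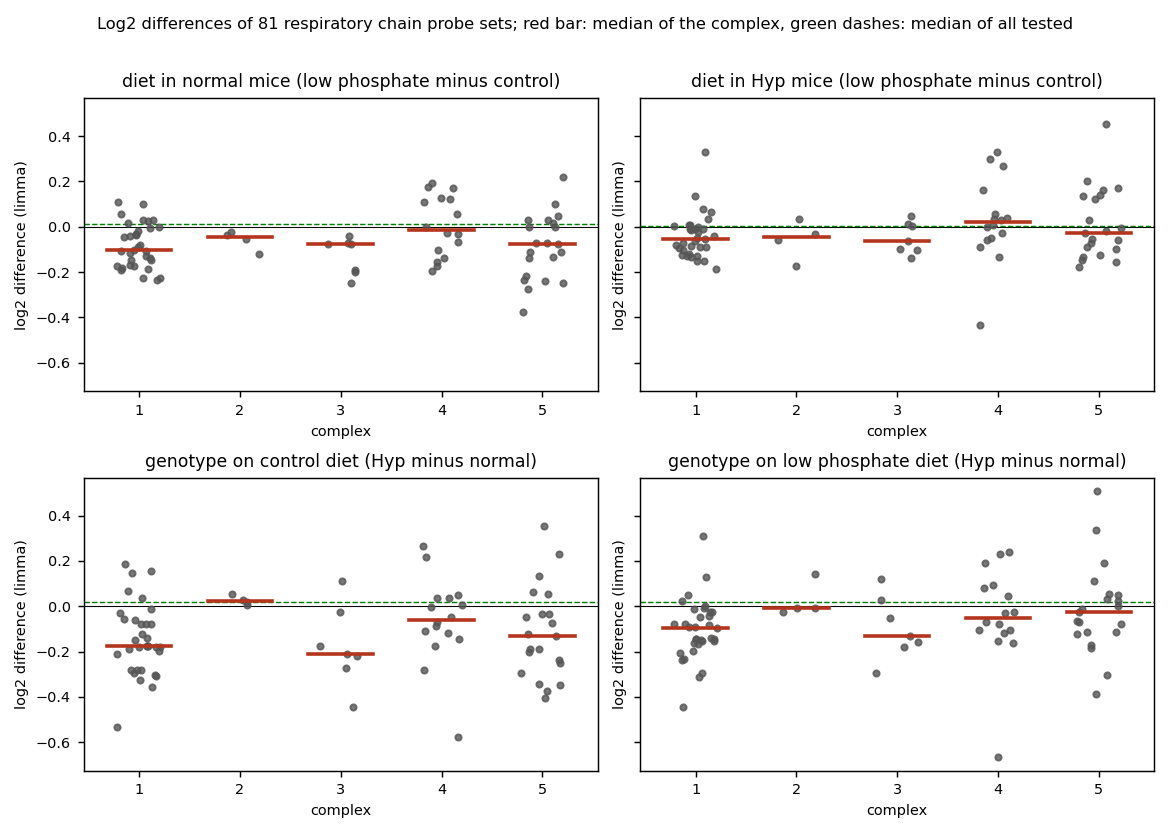
Log2 differences of the 81 tested members (y axis) by complex (x axis) in the 4 comparisons of 2 groups. Each point is a probe set, the red bar is the median of the complex and the green dashes are the median of the 8695 probe sets tested. The complex 1 and complex 3 bars lie below 0 in each panel, the lowest at -0.21 for complex 3 in the comparison of genotypes on control diet.

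Between genotypes on control diet most members were lower in Hyp mice, without a call. No member was called in limma (0 of 81, against 0.253%). An unadjusted p under 0.05 was found for 12 of 81 members, against 8.55% of those tested, and each of the 12 was lower in Hyp mice. The member median was -0.12, with 60 lower and 21 higher, beside 0.018 over the 8695 (4655 higher and 4040 lower). Complexes 1 and 3 had medians of -0.17 and -0.21, complex 5 had -0.13 and complex 4 had -0.060. Complex 2 had 0.022, and its 4 probe sets, at 0.0039 to 0.055, were each higher. This comparison shares the 5 arrays of normal mice on control diet with the diet comparison in normal mice.

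The size of this shift depended on the array sets that hold 1 genotype. It was larger than the -0.075 for diet in normal mice over the 20 arrays but not with the block or without those sets. With a block for array set the member median was -0.066 and 5 members had an unadjusted p under 0.05, against 8.09%. The complex medians were then -0.079, -0.028, -0.15, -0.032 and -0.059 for complexes 1 to 5. Without arrays 09, 10, 19 and 20 the member median was -0.067 (-0.088 for diet in normal mice), without array 09 alone -0.069, and without arrays 05 to 08 it was -0.13. Within sets that hold both genotypes it was below 0 in 4 of 4, with a lowest value of -0.14 and a highest of -0.022. Complexes 1, 3 and 5 were below 0 in 4 of 4 sets, complex 2 in 2 and complex 4 in 1. Over the 8695 probe sets the median within sets ran from -0.0097 to 0.043.

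**Figure D4:**
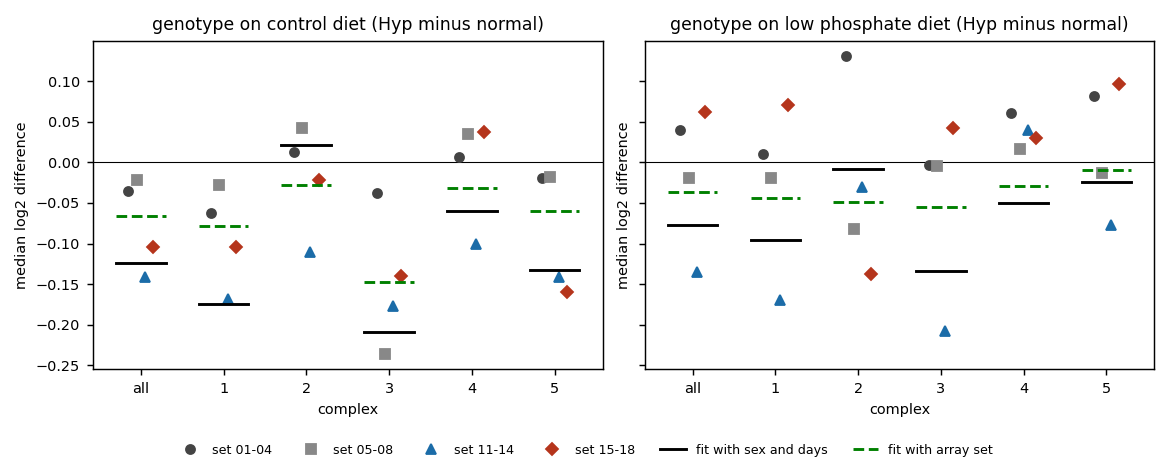
Median log2 difference, Hyp minus normal (y axis), over the tested members and by complex (x axis), on each diet. Symbols are the 4 array sets that hold both genotypes, black bars the fit with sex and days, and green dashes the fit with a block for array set. On control diet the black bar over the 81 members is at -0.12 and the green one at -0.066.

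Ndufc1, a small accessory subunit in the membrane arm of complex 1, had the smallest p. Normal mice on control diet had intensities of 4464, 4662, 6220, 6696 and 5981 in arrays 01, 05, 11, 15 and 19. Hyp mice on control diet had 4258, 2605, 2672, 5317 and 5096 in arrays 03, 07, 09, 13 and 17. The groups overlapped, and arrays 07 and 09 were the low ones. The means were 5605 ± 987 and 3990 ± 1295 (SD, n = 5 each), a log2 difference of -0.53 ± 0.18 SE (adjusted p = 0.42), and Hyp was lower in 4 of 4 sets, by 0.068 to 0.83. With a block for array set it was -0.35 ± 0.12 SE (adjusted p = 0.43). Between sets with the same labels Ndufc1 differed by as much, at -0.75 for arrays 09 and 10 against 03 and 04.

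Atp5d, the delta subunit of the ATP synthase, was the member whose groups did not overlap. In its brightest probe set, normal mice on control diet had 1462, 1582, 1663, 1765 and 1869, and Hyp mice had 1442, 1264, 1094, 1389 and 1350. Such a gap downward was found in 1 of 81 members and in 0.253% of the 8695, and upward in 0 members and in 0.518%. The difference was -0.34 ± 0.11 SE (adjusted p = 0.42). The 3 other tested probe sets of Atp5d gave -0.29 ± 0.13 SE, -0.13 ± 0.13 SE and 0.13 ± 0.15 SE, so they did not share a sign. On low phosphate diet the brightest gave -0.070 ± 0.11 SE.

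In complex 3, Uqcr10, a small subunit, had the smallest p. It had 6958, 6241, 7796, 6889 and 7559 in normal mice on control diet and 6476, 5193, 5542, 6347 and 5785 in Hyp mice. The ranges met only at 6241 to 6476, and Hyp was lower in 4 of 4 sets, by 0.10 to 0.30. The difference was -0.27 ± 0.10 SE (adjusted p = 0.519). Uqcr11 had -0.44 ± 0.17 SE (adjusted p = 0.519) and Uqcrh, the hinge protein that binds cytochrome c1, had -0.22 ± 0.098 SE (adjusted p = 0.57). Uqcrb, another small subunit, was at -0.026 ± 0.12 SE and was higher in Hyp in 3 of 4 sets. Of the core proteins, Uqcrc1 was at -0.18 ± 0.11 SE and Uqcrc2 at 0.11 ± 0.22 SE.

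Members with the smallest p in the upward direction were Cox6b1 and the dimmer probe set of Atp5g2. Cox6b1 had means of 275 ± 112 in normal and 345 ± 161 in Hyp mice on control diet (SD, n = 5 each), a difference of 0.27 ± 0.13 SE (adjusted p = 0.577). Its only probe set carries the suffix _r. Atp5g2 had 0.36 ± 0.18 SE (adjusted p = 0.596) in that probe set, at 63.9 to 207 over the 20 arrays, and -0.19 ± 0.10 SE in its brighter one. Markers of other cells were set beside these values. Proximal tubule markers (16 of 20 on the array, none at 0) summed to 127902 to 141088 in normal and 118328 to 136356 in Hyp mice on control diet, with 12 of 16 lower and 1 called (0.253% of the 8695 were called). Macrophage and lymphocyte markers (15 of 16 on the array) summed to 3515 to 4070 and 4022 to 4940, with 0 of 8 tested called; Itgam, Cd3g and Ccl5 were near 0 with medians of 19.9, 19.2 and 22.6. Adipocyte markers were lower in 8 of 8 tested (median -0.28) and red blood cell markers higher in 3 of 3 (0.34), with 0 called. Markers of thick ascending limb and distal tubule were higher in 8 of 9 tested (median 0.074), with 0 called. The part of these cells in the member values was not tested.

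On low phosphate diet most members were again lower in Hyp mice. No member was called in limma (0 of 81, against 0.357%), and 6 had an unadjusted p under 0.05, against 9.47%. The member median was -0.077, with 59 lower and 22 higher, beside 0.020 over the 8695. With a block for array set it was -0.037, without arrays 09, 10, 19 and 20 it was -0.028, and without array 10 alone -0.043. Within sets it was below 0 in 2 of 4, from -0.13 to 0.062. Proximal tubule markers summed to 140035 to 155129 in normal and 119966 to 143308 in Hyp mice on this diet, with 15 of 16 lower (median -0.21). Tested markers of muscle were higher in 8 of 8 (0.27), of macrophages and lymphocytes in 7 of 8 (0.20), of red blood cells in 3 of 3 (0.37) and of collecting duct in 4 of 4 (0.12). Slc4a1 is in both the red blood cell and the collecting duct list. In limma none of these markers was called. Tested markers of thick ascending limb and distal tubule were higher in 4 of 9 and lower in 5 (median -0.019). Of these 1 was called, lower, against 0.357% of the 8695. The part of these cells in the member values was not tested.

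Uqcr10 had the smallest p on this diet, with 7416, 5043, 7164, 6540 and 7698 in normal and 6410, 4154, 4931, 5586 and 6590 in Hyp mice on low phosphate. The ranges overlapped, and the difference was -0.29 ± 0.10 SE (adjusted p = 0.382), with Hyp lower in 3 of 4 sets. Atp5o, the stalk protein that ties the head of the ATP synthase to its base, had 5534 ± 1081 and 4553 ± 1328 (SD, n = 5 each), a difference of -0.31 ± 0.12 SE (adjusted p = 0.442), and was lower in 4 of 4 sets. Ndufc1 had -0.45 ± 0.18 SE (adjusted p = 0.457). The 2 genotype comparisons use different arrays, and both draw on arrays of the sets that hold 1 genotype.

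Averaged over diets, Ndufc1 and Uqcr10 came closest to a call. No member was called in limma (0 of 81, against 1.28%), and 18 had an unadjusted p under 0.05, against 15.0%, of which 17 were lower and Cox6b1 was higher. Ndufc1 had -0.49 ± 0.13 SE (adjusted p = 0.0732) and Uqcr10 had -0.28 ± 0.074 SE (adjusted p = 0.0804). With a block for array set they had -0.30 ± 0.090 SE (adjusted p = 0.176) and -0.22 ± 0.070 SE (adjusted p = 0.223), and 6 members had an unadjusted p under 0.05, against 10.9%. Both genes passed 0.05 with a filter on dim probe sets at the median intensity, with trended and robust moderation, and without array 18. Cox6b1 had 0.25 ± 0.091 SE (adjusted p = 0.218) and Atp5g1, another precursor of subunit c, had 0.28 in its brightest probe set (adjusted p = 0.347). The member median was -0.10, and it was -0.037 with the block.

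The members of complex 2 had small differences. Sdhb, the iron-sulfur subunit, had group means of 6394 ± 309 and 6246 ± 368 in normal mice on control and low phosphate diet, and of 6474 ± 385 and 6260 ± 907 in Hyp mice (SD, n = 5 each). Its 4 differences between groups lay between -0.058 and 0.017 with an SE of 0.089. Sdhc and Sdhd, the membrane anchors, had differences of -0.054 to 0.14 (SE 0.12) and -0.034 to 0.0039 (SE 0.14). The widest of the 16 values in complex 2 was -0.17 for Sdha in Hyp mice on the 2 diets.

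Among the catalytic and structural subunits that were looked at whatever their values, 20 genes were tested. Ndufv1, the NADH-binding flavoprotein, had 7654 ± 1458, 7790 ± 1394, 7232 ± 1223 and 7037 ± 1245 in the 4 groups in the order above (SD, n = 5 each). Ndufs1, the largest iron-sulfur subunit of complex 1, had 3491 ± 430, 3276 ± 381, 3454 ± 340 and 3241 ± 258. Atp5a1, the alpha subunit of the ATP synthase head, had 12886 ± 1005, 13151 ± 1109, 12603 ± 1045 and 12421 ± 783, and Atp5c1, the gamma shaft, had 8740 ± 297, 7982 ± 720, 8387 ± 1372 and 8166 ± 624. The dimmer probe set of Atp5c1 had the opposite sign for diet in normal mice, for genotype on low phosphate diet and for the interaction. For these 4 genes the spread within groups exceeded most differences between group means. Over the 20 genes the median difference was -0.070 and -0.031 for diet in normal and Hyp mice and -0.048 and -0.018 for genotype on control and low phosphate diet, with 0 called in each.

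The isoforms of complex 4 that differ between tissues were followed separately. Cox7a1, the heart and muscle isoform, had 265 ± 26.5, 230 ± 49.4, 216 ± 52.5 and 224 ± 48.6 in the 4 groups (SD, n = 5 each), and Cox7a2, the common isoform, had 9911 ± 604, 9737 ± 1260, 8966 ± 693 and 9051 ± 1042. Cox6a1, the common isoform, had 16804 ± 1111, 18138 ± 933, 16255 ± 1210 and 16251 ± 1555. Its muscle counterpart Cox6a2 was too dim to be tested, at 35.2 to 211. Of the 14 listed isoforms 12 were on the array and 10 were tested, with 0 called for diet or genotype. Muscle markers, 17 of 17 on the array, summed to 1432 to 3269, with medians from 8.25 for Myh1 to 493 for Actc1 and 8 of 17 bright enough to be tested, and Cox8b, another muscle isoform, lay at 255 to 867 in its brightest probe set.

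Probe sets of 1 gene often disagreed. Of the 12 genes with several tested probe sets, the number with values of both signs was 6 for diet in normal mice, 6 for diet in Hyp mice, 5 for genotype on control diet and 8 for genotype on low phosphate diet. Of the 81 tested probe sets, 17 carry the suffix _f and 4 the suffix _r, which mark probes shared within a family or chosen under relaxed rules, so near-identical copies and pseudogenes could add to their values. Each value given for Cox6b1 and Uqcrc2 comes from such a probe set alone.

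Between females and males, 14 of 81 members were called, 2 higher and 12 lower in females, against 16.6% of the probe sets tested (7.95% higher and 8.67% lower). Of these, 8 belong to complex 1, 2 to complex 3, 3 to complex 4 and 1 to complex 5. Ndufv1 was lower by 0.34 (SE 0.062, adjusted p = 0.0019) and Ndufb6 by 0.49 (SE 0.098, adjusted p = 0.00344). Cox6b1 was higher by 0.40 (SE 0.095, adjusted p = 0.0101). Without arrays 05 to 08 no member was called in limma (0 of 81, against 0.219%), and 1 had an unadjusted p under 0.05, against 7.45%. Without arrays 09, 10, 19 and 20, 28 members were called, against 23.5%. In arrays 01 to 04 and 11 to 18 alone, the sets with each group other than arrays 05 to 08, 0 members were called, against 1.17%, and 4 had an unadjusted p under 0.05, against 14.0%. There Ndufv1 was at -0.082 ± 0.087 SE, Ndufb6 at -0.030 ± 0.090 SE and Cox6b1 at -0.18 ± 0.11 SE. No array set holds both sexes, so sex and array set cannot be told apart.

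Between 5 and 3 days, 42 of 81 members were called, 9 higher and 33 lower at 5 days, against 40.9% (20.7% higher and 20.2% lower). The member median was -0.15, beside 0.013 over the 8695, and complexes 1 and 3 had -0.23 and -0.26. The largest falls with a single tested probe set were Atp5e (-1.20 ± 0.19 SE, adjusted p = 0.000265), Ndufab1 (-0.78 ± 0.17 SE, adjusted p = 0.00206) and Uqcr11 (-0.76 ± 0.13 SE, adjusted p = 0.000391). In arrays 01 to 04 and 11 to 18 alone 14 members were called, 6 higher and 8 lower, against 23.2%, and the member median was -0.027. Of the 42, 8 were called there and 9 had the opposite sign. Without arrays 05 to 08, where males alone have both durations, 0 members were called in limma, against 0.299%, and 7 had an unadjusted p under 0.05, against 19.7%.

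The 8 called both ways were the probe sets of Atp5e, Ndufa6, Ndufv2, Cox8b, Cox8c and 1 of Atp5d. Atp5e was at -0.60 ± 0.12 SE (adjusted p = 0.00965) in the 12 arrays. Ndufv2, an iron-sulfur subunit beside the NADH site, was at -0.55 ± 0.091 SE over the 20 arrays and -0.47 ± 0.070 SE in the 12 (adjusted p = 0.00335), in its brightest probe set. Its intensities at 5 days in arrays 01 to 04 were 3950, 3530, 4011 and 3517, and at 3 days in arrays 11 to 14 they were 5415, 5151, 5218 and 5073, with no overlap. At 5 days in the other males it was 3276 and 3317 in arrays 09 and 10 and 5427 and 5075 in arrays 19 and 20, so sets of the same duration lay on both sides. Ndufa6, an accessory subunit of complex 1, was at -0.67 ± 0.11 SE and -0.37 ± 0.087 SE (adjusted p = 0.018 in the 12 arrays). Its intensities at 5 days were 1166 and 969 in arrays 09 and 10 and 2089 and 2052 in arrays 19 and 20. At 3 days they were 1676 to 2181 in arrays 11 to 18.

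Cox8b and Cox8c, isoforms of muscle and testis, were higher at 5 days in both fits, but not in each array set of that duration. Cox8c was at 0.55 ± 0.12 SE and 0.45 ± 0.11 SE (adjusted p = 0.0233 in the 12 arrays), and the brightest probe set of Cox8b at 0.50 ± 0.15 SE and 0.54 ± 0.15 SE (adjusted p = 0.0338). Sdhd, the small anchor of complex 2, was called in the 12 arrays only, at 0.49 ± 0.097 SE (adjusted p = 0.00895), and had 0.25 ± 0.11 SE over the 20. At 5 days, Cox8c, Cox8b and Sdhd had 716 and 918, 304.5 and 352.7, and 5803 and 6021 in arrays 19 and 20. In arrays 09 and 10 they had 1561 and 1279, 398.5 and 431.7, and 7717 and 8177. Arrays 01 to 04 had 1197 to 1292, 434 to 656 and 8344 to 8976.5. At 3 days, arrays 11 to 18 had 735 to 1055, 255 to 445 and 5405 to 7084. Only males have both durations in arrays 01 to 04 and 11 to 18, and for them each duration is 1 array set there. Among the females of the 20 arrays each duration is also 1 array set. Days and array set cannot be told apart in either case.

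**Figure D5:**
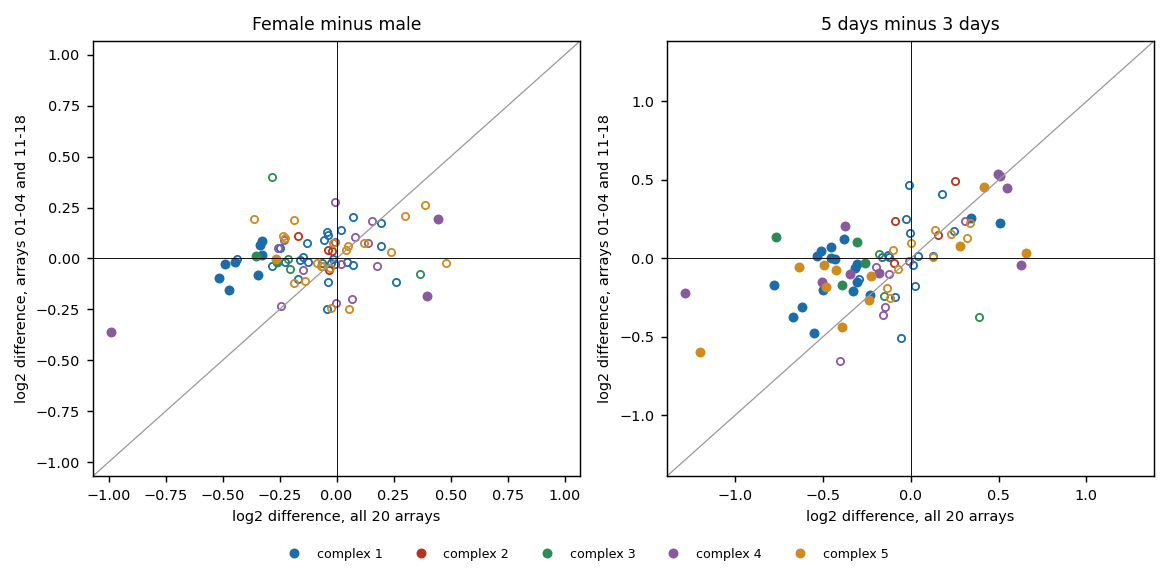
Log2 difference of each tested member over the 20 arrays (x axis) and in arrays 01 to 04 and 11 to 18 alone (y axis), for sex and for days. Colours mark the complexes, filled points were called over the 20 arrays, and the grey line marks equal values. For sex the 14 filled points lie between -0.18 and 0.20 on the y axis, apart from Cox6b2 at -0.36, and for days 8 of the 42 were called in both.

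Other genes of mitochondrial energy supply were counted for comparison, 1 probe set per gene. The citric acid cycle (14 of 16 listed genes tested) was lower in 13 of 14 for diet in normal mice (4148 of the 8695 were lower), with a median of -0.10 and 0 called, and its lowest was Dlat, part of pyruvate dehydrogenase, at -0.17 ± 0.12 SE. Electron carriers and assembly factors (22 of 43 tested) had 16 lower and a median of -0.042. Their lowest was Cycs, somatic cytochrome c, at -0.66 ± 0.16 SE (adjusted p = 0.15). Mitochondrial biogenesis regulators (10 of 18 tested) went the other way for that comparison, with 8 higher and a median of 0.075, and Ppargc1a, the coactivator of the program, was at -0.052 ± 0.21 SE. Mitochondrial carriers and channels (19 of 24 tested) were lower in 16 of 19 for genotype on control diet (4040 of the 8695), with a median of -0.12. For diet these carriers were lower in 12 of 19 in normal mice and in 8 of 19 in Hyp mice. The citric acid cycle was lower in 8 of 14 for genotype on control diet and in 7 of 14 on low phosphate diet. The biogenesis regulators were lower in 9 of 10 for genotype on low phosphate diet (median -0.12). In the 7 diet and genotype comparisons the only call in these 4 lists was Timm17a, a subunit of the inner membrane import channel, lower in Hyp mice averaged over diets (-0.41 ± 0.087 SE, adjusted p = 0.0246), where 1.28% of the 8695 were called.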

How the data were processed

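Kidney RNA was measured on 20 arrays with 1 value per probe set (12488, of which 66 control probe sets were left out). The authors deposited linear intensity values scaled to a trimmed mean (2% at each end) near 500.3 on every array. The sources used here do not name the software. Symbols came from the platform annotation, and 71 of 71 genes matched RefSeq. The offset before log2 was 37.8 (percentile 20 of the values), so dim genes' changes are understated. Probe sets with a mean intensity under percentile 30 (79.44) were left out. limma 3.58.1 in R 4.3.3 was fitted on all 20 arrays, with 13 residual degrees of freedom, for 9 comparisons, and two-sided p-values were adjusted by Benjamini-Hochberg. The steps were tested on simulated data. The number of arrays limits the precision, and the p-values reflect how much the arrays, each a pool of 3 mice, varied around the fit. This includes differences between array sets that share sex and duration.

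The members, gene lists and alternatives were chosen with earlier results of these data known. Named genes were members called in any comparison, the 2 of smallest p per direction in the 7 diet and genotype comparisons, and fixed lists of core subunits and tissue isoforms. A gene is given by its brightest probe set, and others where the sign differs. Alternatives were an offset of 1, quantile normalization, no filter, a filter at the median, trended and robust moderation, no terms for sex and days, 1 probe set per gene, array set as a block, fits to 2 groups, 1 sex or 1 duration, leaving out arrays 05 to 08, leaving out arrays 09, 10, 19 and 20, and each array left out in turn. The fit to arrays 01 to 04 and 11 to 18 was added after the data were seen.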

Additional observations from a re-analysis of the deposited data

Results flagged for a closer look

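Within groups of 5 arrays, 8 of 88 sets of values examined had 1 array far from the other 4 (a gap over 0.710 of the range). Chance gives about 1 in 20 for independent draws from a normal distribution. The groups here mix sexes, durations and array sets, and the sets of values share arrays, so that rate need not hold. In normal mice on low phosphate diet, array 06 had 3658 for Atp5o (others 5766 to 6424), 551.5 for Cox6b1 (others 210.6 to 236.4) and 287.9 for Cox6b2 (others 526.5 to 619). Its complex 3 median was -0.5124, against 0.0686 to 0.2713. In Hyp mice on low phosphate diet, array 08 had 626.7 for Cox6b1 (others 226.5 to 331.5). Both arrays belong to the set 05 to 08.

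In Hyp mice on control diet, array 17 had 1537 for Sdha (others 1338 to 1388), and array 09 had a complex 5 median of -0.1483 (others 0.0022 to 0.0353). In normal mice on control diet, array 05 had a complex 4 median of -0.0449 (others 0.0601 to 0.0998).

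Atp5g2, in its brighter probe set, was lower in Hyp mice on control diet and higher on low phosphate diet in each of the 4 array sets with both genotypes. The mean differences within sets were -0.1534 and 0.1639, which differ by -0.3173. The limma interaction over the 20 arrays, which tests this contrast, was 0.24 ± 0.15 SE (adjusted p = 1) and was not called. In the dimmer probe set of Atp5g2 the interaction had the opposite sign. That probe set was higher in Hyp mice on control diet in 3 of 4 sets.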

How the results depend on the processing

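Replicate numbers are the arrays' title numbers, which no 2 groups share, so the array set served as the block. For diet and genotype, 0 members were called under each alternative run, except that genotype averaged over diets gave 2 (Ndufc1 and Uqcr10) with the filter at the median, 2 with trended and robust moderation, and 0 to 2 with 1 array left out (2 without array 18). Member medians with 1 array left out ran from -0.11 to -0.052 for diet in normal mice, -0.057 to -0.0033 for diet in Hyp mice, -0.076 to -0.039 for diet averaged, -0.15 to -0.069 for genotype on control diet, -0.099 to -0.043 on low phosphate diet, -0.11 to -0.075 for genotype averaged, and 0.0017 to 0.083 for the interaction. For sex they ran from -0.084 to -0.041 and for days from -0.18 to -0.12.

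Calls for sex were 9 to 22 with 1 array left out (9 without array 06 or 15, 22 without array 10), 28 without arrays 09, 10, 19 and 20, 0 without arrays 05 to 08, and 0 in arrays 01 to 04 and 11 to 18. Calls for days were 31 to 46 with 1 array left out, 0 without arrays 05 to 08 and 14 in arrays 01 to 04 and 11 to 18, where the member median was -0.055 and -0.027. Signs turned for sex both without arrays 05 to 08 and in arrays 01 to 04 and 11 to 18, for Cox6b1 (-0.18), Ndufa3 (0.019), Ndufb10 (0.088), Ndufb8 (0.066) and Uqcrc1 (0.0099). For days they turned without arrays 05 to 08 for Ndufb3 (0.042) and Uqcrc1 (0.057), and in arrays 01 to 04 and 11 to 18 for Cox6b1 (-0.044), Cox6b2 (0.21), Ndufb10 (0.015), Ndufb3 (0.12), Ndufb6 (0.047), Ndufb8 (0.071), Ndufv3 (0.0047), Uqcr11 (0.14) and Uqcrc1 (0.11). The cause was not tested. Fewer arrays were fitted in these settings. Of the other values for named genes under alternatives, 15185 kept their side of the threshold. These include any change of sign within the spread where neither fit made a call. Another 147 fell below the threshold, 63 passed it, and 53 turned sign by more than the spread without a call.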
